A study of Arabidopsis thaliana with 24 samples.

Results

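Mature miRNAs of shoot apices were compared between the rh27-2 line of Arabidopsis thaliana and its Col-0 wild type (WT). The comparison used the 6 shoot apex small RNA libraries, 3 of rh27-2 and 3 of WT, out of 24 libraries in the series. In these 6 libraries 207 mature miRNA entries were listed at least once, of 274 listed in any of the 12 small RNA libraries, and an entry missing from a library's list was taken as 0. The remaining libraries hold root tip small RNA and the mRNA of both organs. Seedlings of both genotypes carried no other labelled allele or agent, grew on sucrose-containing Murashige and Skoog plates under long days, and were taken 5 days after germination. The labels state neither the type of mutation in rh27-2 nor how many seedlings were pooled in a library, nor whether the 3 samples of a group came from separate plates, so a p-value here is set against the spread of these samples alone, which may be technical. RH27 encodes a DEAD-box RNA helicase, and the question was how its mutation bears on miRNA accumulation.

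Plant miRNAs are cut by the Dicer protein DCL1, with its partners HYL1 and SE, from stem-loop precursors that RNA polymerase II transcribes. Both arms of the stem can yield a stable small RNA, named -5p and -3p, and the guide arm directs ARGONAUTE proteins to mRNAs with a matching site, which are then cut or repressed. In the shoot apex many conserved families act on transcription factors of the meristem, of organ boundaries, of leaf polarity and of the change from juvenile to adult leaves, while other families answer to copper, phosphate and sulfate supply. Young miRNAs are found only in close relatives of Arabidopsis, and several have no well-established target. Entry names are used as deposited. The files hold no sequences, so the strand behind a name was not checked, and more than one locus can lie behind a name.

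The rh27-2 libraries had 53934937, 10795610 and 38049871 reads, and the WT libraries 9355356, 21878400 and 69589971 reads, inferred from the smallest step between values in each file. Each file holds few low values, so this step was taken, and not shown, to be 1 read, and every read number given here rests on it. Values are in reads per 30000000 (RP30M). One read was worth 0.556 to 2.78 RP30M in rh27-2 libraries and 0.431 to 3.21 RP30M in WT libraries, and 3 reads correspond to 1.29 to 9.62 RP30M, so low entries are the least precise. Libraries listed 126 to 175 entries. At the lowest depth, 131 to 134 entries would be expected in rh27-2 libraries and 126 to 146 in WT libraries. The matched shoot mRNA libraries had 15610809 to 20380109 counts. In them the meristem genes STM and KNAT1 were higher in rh27-2 by 2.27 and 1.85 on the log2 scale, the leaf photosynthesis gene LHCB1.1 was lower at -3.30, and the abaxial organ gene FIL was lower at -1.25 (edgeR, adjusted p = 0.001001, 0.00229, 0.000596 and 0.000722). The 8 shoot markers together took 365 to 455 CPM (counts scaled to a common library size) in rh27-2 and 1443 to 2359 in WT, and without LHCB1.1 235 to 278 in rh27-2 and 141 to 179 in WT. The 8 root markers summed to 34.1 to 38.4 CPM in rh27-2 and 53.5 to 76.7 in WT. Over all 6 libraries PLT1, RHD6, BRN1 and COBL9 had 1, 2, 18 and 21 counts. CASP1, WOX5, CEL5 and GL2 had 57, 299, 2543 and 2595 counts. GL2 and WOX5 were lower at -1.67 and -2.59, while CEL5 and CASP1, at -0.07 and 2.70, did not pass (edgeR, adjusted p = 0.0123, 0.0389, 0.771 and 0.0704). The marker levels thus differed between genotypes. Their part in the miRNA results was not tested, and in bulk samples fewer cells of a type and less RNA per cell cannot be told apart.

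Listed miRNAs took a slightly larger share of the small RNA reads in rh27-2, and a handful of entries dominated both genotypes. The share was 2.63%, 2.94% and 2.54% in rh27-2 libraries, against 2.41%, 2.51% and 1.83% in WT libraries. The groups did not overlap, with means of 2.71% ± 0.210 and 2.25% ± 0.371 (SD, n = 3 each). The exact two-sided permutation p was 0.1, the smallest that 3 against 3 libraries allow. The 7 most abundant entries of each library held 86.1% to 86.8% of its miRNA reads in rh27-2 and 85.3% to 88.5% in WT.

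The most abundant entry was miR166g, which acts on the class III HD-ZIP genes of leaf polarity. It held 26.5% ± 2.72 of miRNA reads in rh27-2 and 20.8% ± 0.991 in WT (SD, n = 3 each). Next came miR398c-3p, a copper-responsive miRNA of superoxide dismutase mRNAs, with 21.7% ± 3.23 in rh27-2 and 25.0% ± 3.18 in WT. The related miR165b held 12.84% ± 0.902 in rh27-2 and 14.99% ± 4.50 in WT, and miR161.1, a young miRNA of pentatricopeptide repeat mRNAs, held 7.81% ± 0.835 in rh27-2 and 9.08% ± 2.87 in WT. For these last 3 the libraries of the genotypes overlapped, and their log2 fold changes in RP30M were 0.07, 0.09 and 0.11 (limma, adjusted p = 0.860, 0.816 and 0.802). Their sign turned negative when libraries were scaled to listed miRNA reads.

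**Figure D1:**
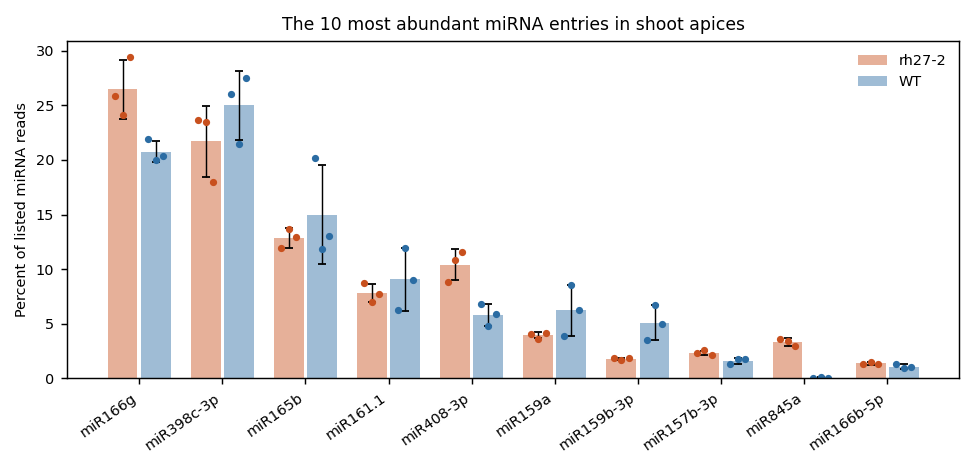
Share of listed miRNA reads (percent, vertical axis) for the 10 most abundant entries in rh27-2 (orange) and WT (blue) shoot apices. Bars are means, error bars SD, points single libraries (n = 3 each). The plot shows miR845a at 3.32% in rh27-2 and 0.0615% in WT, and miR408-3p at 10.4% in rh27-2 and 5.80% in WT.

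Of the 79 entries that reached 30 RP30M in 3 or more libraries, 16 were higher in rh27-2 (20.3% of those tested) and 19 were lower (24.1%), so 35 passed (44.3%; limma on log2 of RP30M plus 1, adjusted p under 0.05). By fold, 12 of the rises and all 19 falls were at least 2-fold, and the median log2 fold change over the 79 entries was 0.01. The libraries of the genotypes did not overlap for 31 of the 35, against 40 of 79 entries (50.6%) overall. The other 128 listed entries were too low to test. Of those tested, 7 reached the filter in 1 genotype only, and 6 of these passed (miR845b, miR829-3p.1, miR3932b-5p, miR399a, miR171c-3p and miR171c-5p). For them a difference was largely built into the filter. The split depends on scaling. With libraries scaled to listed miRNA reads 34 entries passed, of which 29.4% were higher and 29 were among the 35, and with TMM factors 42 passed, of which 61.9% were higher and 32 were among the 35, against 45.7% higher here. These scalings moved the median over entries to -0.27 and 0.32. Because limma pooled the variance over entries, with infinite prior degrees of freedom, single-entry p-values lean on entries of like abundance, and 17 entries passed when each kept its own variance, a fit chosen after seeing the data. Leaving out a library left 20 to 35 calls, with 21, 23 and 20 without rh27-2 replicates 1, 2 and 3 and 23 without WT replicate 3. The rises then numbered 7, 7, 7 and 8, and without WT replicate 2 the falls numbered 12. In all, 14 of the 35 passed in the same direction under every alternative in which they were tested, 5 of them higher and 9 lower. Entries that reached the filter in 1 genotype only were not tested without a library of that genotype.

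**Figure D2:**
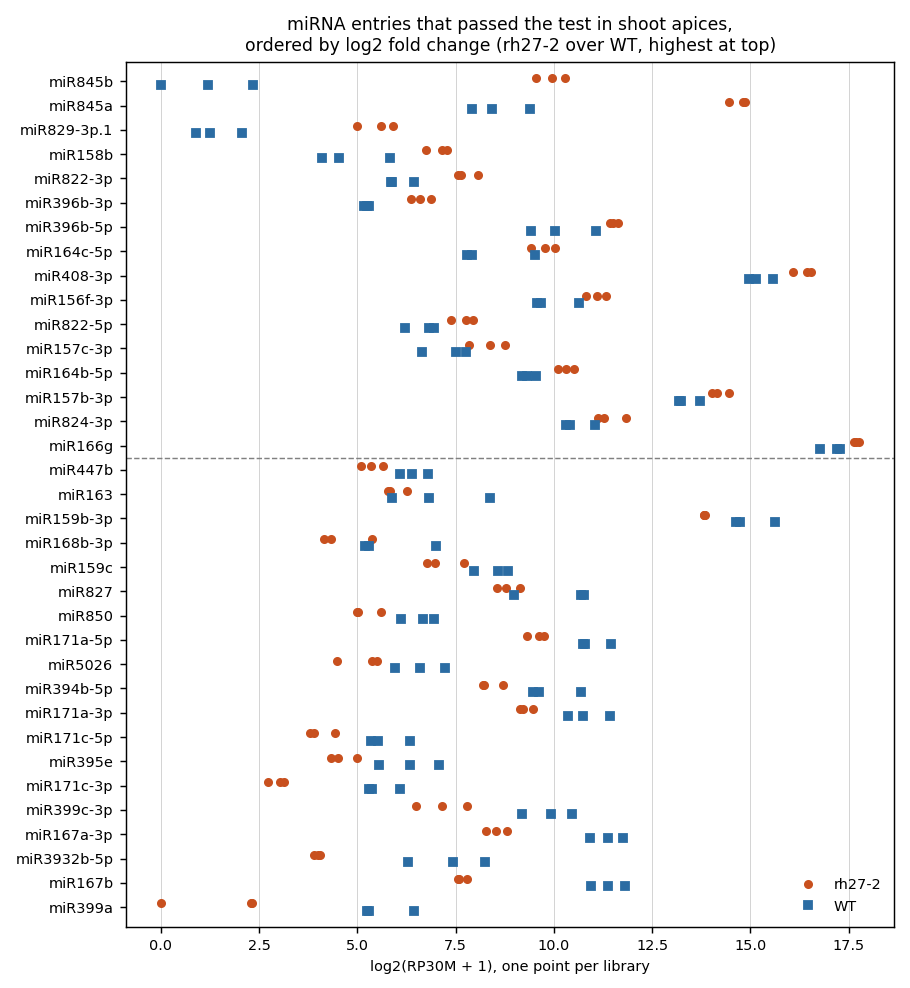
The 35 entries that passed, with log2(RP30M + 1) per library on the horizontal axis (rh27-2 orange circles, WT blue squares) and entries ordered by log2 fold change of rh27-2 over WT. The 16 rises stand above the dashed line and the 19 falls under it. The points of miR845b, miR845a and miR829-3p.1 lie far apart at the top, and those of miR399a and miR167b at the bottom.

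The largest rises belonged to miR845a and miR845b, a young family whose members match the primer-binding sites of LTR retrotransposons and which is known from pollen. miR845a had 28608, 29840 and 22667 RP30M in rh27-2 libraries, against 241, 671 and 341 RP30M in WT libraries. Every rh27-2 library was far above every WT library. Its mean was 64.8-fold higher in rh27-2, with a log2 fold change of 6.14 (SE 0.346, limma, adjusted p = 8.66e-48). miR845b had 1251, 987 and 751 RP30M in rh27-2, against 0, 4.11 and 1.29 RP30M in WT. The WT values stand for 0, 3 and 3 reads, so WT was at or under the floor of 3 reads. Over pooled reads it was 581-fold higher in rh27-2 (3556 reads against 6, exact 95% interval 267 to 1585, counting error only), and by mean RP30M 553-fold. Its log2 fold change was 8.75 (SE 0.431, limma, adjusted p = 2.25e-57). As a family miR845 took 3.45% of miRNA reads in rh27-2 and 0.0617% in WT. Both entries passed under every alternative in which they were tested. miR845b reached the filter in rh27-2 only, so a difference was largely built into the filter. It was not tested in the fits without an rh27-2 library.

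Of the 15 other tested entries assigned to young families, 5 were higher and 3 lower, against 20.3% higher and 24.1% lower of all 79. The 5 include miR829-3p.1, which reached the filter in rh27-2 only, so its rise was largely built into the filter. miR829-3p.1, which has a mean under the 60 RP30M set for naming and was picked after its values were seen, had 58.4, 30.6 and 47.3 RP30M in rh27-2, against 3.21, 1.37 and 0.862 RP30M in WT. The WT values are 1, 1 and 2 reads, and pooled reads were 43.2-fold higher in rh27-2 (176 reads against 4, exact 95% interval 16.6 to 160.2, counting error only). Pooling weights libraries by depth, and by mean RP30M the rise was 25.1-fold. Its log2 fold change was 4.08 (SE 0.479, limma, adjusted p = 1.04e-14). miR158b, a relative of the abundant miR158a, had 140.7, 155.6 and 105.7 RP30M in rh27-2 and 16.0, 56.2 and 22.0 RP30M in WT, apart in every library (log2 fold change 2.24, SE 0.441, adjusted p = 5.03e-06). Its relative miR158a-3p did not pass, with 5126 ± 628 RP30M in rh27-2 and 7396 ± 4562 RP30M in WT (SD, n = 3 each).

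miR822, whose long hairpin is known to be processed by DCL4 in place of DCL1, rose on both arms. miR822-3p had 189, 267 and 196 RP30M in rh27-2, against 57.7, 85.0 and 56.9 RP30M in WT, and miR822-5p had 243.6, 166.7 and 214.5 RP30M in rh27-2, against 112, 122 and 72.4 RP30M in WT. Neither arm overlapped between genotypes. The log2 fold changes were 1.70 (SE 0.428, limma, adjusted p = 0.000485) and 1.04 (SE 0.425, adjusted p = 0.0376). The 5p call was lost with scaling to listed miRNA reads (adjusted p = 0.0677), as it was under most leave-one-out fits. miR824-3p, the partner arm of the miRNA that acts on the MADS-box gene AGL16, had 2782 ± 745 RP30M in rh27-2 and 1578 ± 469 RP30M in WT (log2 fold change 0.82, adjusted p = 0.0394), and its call was lost with that scaling too (adjusted p = 0.127).

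Among conserved families miR408-3p rose, which acts on the mRNAs of the copper proteins plantacyanin and laccase. It had 69677, 95761 and 88322 RP30M in rh27-2, against 48931, 35966 and 32115 RP30M in WT. The genotypes did not overlap, and the entry was 2.17-fold higher by means (log2 fold change 1.13, SE 0.285, limma, adjusted p = 0.000485). The call held under every alternative run. The opposite arm, miR408-5p, averaged 2607 ± 181 RP30M in rh27-2 and 2243 ± 381 RP30M in WT and did not pass (log2 fold change 0.23, adjusted p = 0.651), and the change of the ratio of the arms did not pass either (log2 -0.90, adjusted p = 0.176). The other copper miRNA with high abundance, miR398c-3p, was given above and did not pass.

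Of 12 tested entries of the leaf growth and organ boundary families miR159, miR164, miR319 and miR396, 4 were higher and 2 lower, a share near the 44.3% that passed over all 79. miR396b-5p, which restrains the GROWTH-REGULATING FACTOR genes of cell proliferation in leaves, had 2891, 3154 and 2771 RP30M in rh27-2, against 686, 2134 and 1036 RP30M in WT, with no overlap (log2 fold change 1.35, SE 0.343, limma, adjusted p = 0.000499). Its partner miR396b-3p had 95.1, 80.6 and 115 RP30M in rh27-2, against 38.5, 37.0 and 34.9 RP30M in WT (log2 fold change 1.36, SE 0.441, adjusted p = 0.00703). Both arms of this precursor were thus higher by about the same factor. The arms of miR396a did not pass, although miR396a-3p, at 1060 ± 427 RP30M in rh27-2 and 541 ± 61.2 RP30M in WT, came close (log2 fold change 0.90, adjusted p = 0.0531).

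miR164, which marks organ boundaries by acting on CUC1 and CUC2, had 1262, 1451 and 1090 RP30M of miR164b-5p in rh27-2, against 580, 745 and 634 RP30M in WT (log2 fold change 0.95, SE 0.379, limma, adjusted p = 0.0337). miR164c-5p had 874, 1050 and 676 RP30M in rh27-2, against 728, 239 and 219 RP30M in WT. Here the WT library of replicate 1 lay within the rh27-2 range, so the groups overlapped (log2 fold change 1.34, SE 0.418, adjusted p = 0.00507). The miR164b-5p call was lost with scaling to listed miRNA reads (adjusted p = 0.0677). miR319b, which acts on the CIN-type TCP genes, averaged 6266 ± 380 RP30M in rh27-2 and 4382 ± 1574 RP30M in WT and did not pass (log2 fold change 0.57, adjusted p = 0.164).

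miR159, which holds the GAMYB-like genes MYB33 and MYB65 low in leaves, fell in 2 of its 3 tested entries. miR159b-3p had 14412, 14653 and 14362 RP30M in rh27-2, against 25526, 50969 and 27231 RP30M in WT, and the rh27-2 libraries were close to each other and all below WT (log2 fold change -1.18, SE 0.316, limma, adjusted p = 0.000935). miR159c had 147 ± 54.0 RP30M in rh27-2 and 362 ± 104 RP30M in WT (log2 fold change -1.31, adjusted p = 0.00838). The most abundant member, miR159a, did not pass, with 32331, 31930 and 31672 RP30M in rh27-2 and 27806, 64427 and 34358 RP30M in WT (log2 fold change -0.30, adjusted p = 0.428). Its value rests on WT replicate 2, without which it was 0.05. Over 79 tested entries that library was the highest of the WT libraries for 53.

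Phase change is governed by miR156 and miR157, which hold SPL genes low in juvenile leaves, and by miR172. Of their 8 tested entries, 3 passed (37.5%), all higher and all named as 3p, beside 44.3% that passed over all 79. miR157b-3p had 18033, 22612 and 16580 RP30M in rh27-2, against 9319, 13356 and 9701 RP30M in WT, without overlap (log2 fold change 0.83, SE 0.331, limma, adjusted p = 0.0337). miR156f-3p had 2200, 2568 and 1804 RP30M in rh27-2, against 1603, 817 and 761 RP30M in WT, also without overlap (log2 fold change 1.12, SE 0.343, adjusted p = 0.00455). miR157c-3p averaged 329.6 ± 101 RP30M in rh27-2 and 164.7 ± 59.96 RP30M in WT (log2 fold change 1.02, adjusted p = 0.0431). The 5 other tested entries of these families did not pass, among them miR156f-5p at 4758 ± 633 RP30M in rh27-2 and 3769 ± 1209 RP30M in WT. The calls of miR157b-3p and miR157c-3p were lost with scaling to listed miRNA reads (adjusted p = 0.0677 each).

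Of the leaf polarity miRNAs, miR166g had 204193, 212881 and 224481 RP30M in rh27-2, against 158098, 150920 and 111731 RP30M in WT. The libraries did not overlap, but the change was small, at 1.52-fold by means (log2 fold change 0.62, SE 0.255, limma, adjusted p = 0.0376). It was lost with scaling to listed miRNA reads (adjusted p = 0.130) and in 4 of the 6 fits that left out a library. miR166b-5p had a like log2 fold change of 0.64 and did not pass (adjusted p = 0.114). The other 7 tested entries of leaf polarity and trans-acting siRNA families, which include miR165, miR173, miR390 and miR403, did not pass.

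The auxin miRNA miR167 fell in miR167b and miR167a-3p. It acts on the auxin response factor genes ARF6 and ARF8 and on IAR3. miR167b had 219, 189 and 192 RP30M in rh27-2, against 1972, 3578 and 2642 RP30M in WT. Every rh27-2 library was far below the lowest WT library, and the mean was 13.7-fold lower (log2 fold change -3.73, SE 0.398, limma, adjusted p = 4.08e-17). miR167a-3p had 364.9, 447.4 and 306.7 RP30M in rh27-2, against 3463, 2668 and 1924 RP30M in WT, and was 7.20-fold lower (log2 fold change -2.82, SE 0.372, adjusted p = 4.47e-12). Both calls held under every alternative run. miR160 and miR393, the other auxin families, had 4 tested entries and none passed.

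In the meristem families, both arms of miR171a and miR394b-5p fell, beside 24.1% of all tested entries. miR171 acts on the HAM genes, which keep stem cells undifferentiated. miR171a-3p had 703, 561 and 593 RP30M in rh27-2, against 1305, 2745 and 1698 RP30M in WT, and miR171a-5p had 779.8, 853.1 and 636.3 RP30M in rh27-2, against 1703, 2792 and 1764 RP30M in WT. All rh27-2 libraries were below all WT libraries for both arms, with log2 fold changes of -1.57 (SE 0.365, limma, adjusted p = 0.000174) and -1.43 (SE 0.353, adjusted p = 0.000402). The low entries miR171c-3p and miR171c-5p, which reached the filter in WT only and are named after their values were seen, fell by 2.63 and 1.71 on the log2 scale (adjusted p = 1.91e-07 and 0.000587), with 6.81 ± 1.14 and 15.7 ± 4.17 RP30M in rh27-2 and 48.6 ± 16.2 and 55.1 ± 21.9 RP30M in WT. The 4 miR171 calls held under every alternative in which the entry was tested. miR394b-5p, which signals from the epidermis of the apex through the F-box gene LCR, had 290, 417 and 298 RP30M in rh27-2, against 786, 1652 and 708 RP30M in WT (log2 fold change -1.55, SE 0.416, adjusted p = 0.000935).

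Of 9 tested entries of the copper, phosphate and sulfate families, 1 was higher and 4 lower, against 20.3% higher and 24.1% lower of all 79. The 4 include miR399a, which reached the filter in WT only, so its fall was largely built into the filter. miR399c-3p, which spares phosphate transport by acting on the ubiquitin-conjugating enzyme gene PHO2, had 89.6, 142 and 218 RP30M in rh27-2, against 968, 1399 and 582 RP30M in WT. The groups lay well apart, with a log2 fold change of -2.71 (SE 0.436, limma, adjusted p = 1.64e-08). miR399a, a low entry named after its values were seen, had 3.89, 0 and 3.94 RP30M in rh27-2, against 38.5, 85.0 and 37.1 RP30M in WT. Pooled reads were 13.6-fold lower (12 reads against 160, exact 95% interval 7.57 to 26.9, counting error only), and mean RP30M was 20.5-fold lower (log2 fold change -4.13, limma, adjusted p = 3.71e-15). miR827, which acts on the ubiquitin ligase gene NLA, had 435, 564 and 377 RP30M in rh27-2, against 503, 1650 and 1746 RP30M in WT. WT replicate 1 lay among the rh27-2 libraries, so the groups overlapped (log2 fold change -1.32, SE 0.400, adjusted p = 0.00393). The low entry miR395e of sulfate assimilation, also named after its values were seen, had 23.7 ± 6.08 RP30M in rh27-2 and 86.3 ± 44.0 RP30M in WT (log2 fold change -1.72, adjusted p = 0.000425), while miR395f did not pass (log2 fold change -0.48, adjusted p = 0.391). The summed miR395 family did not pass either, with 177 ± 34.9 RP30M in rh27-2 and 310 ± 145 RP30M in WT, overlapping (log2 fold change -0.73, adjusted p = 0.175).

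Further entries of young or unassigned families fell. miR3932b-5p, for which no role is given here, had 15.57, 13.89 and 14.98 RP30M in rh27-2, against 77.0, 300.3 and 171.1 RP30M in WT (log2 fold change -3.33, SE 0.434, limma, adjusted p = 2.67e-12). It reached the filter in WT only, so its lack of overlap was built into the filter. miR5026 and miR850 averaged 35.3 ± 12.3 and 36.4 ± 9.41 RP30M in rh27-2 and 102 ± 44.6 and 96.8 ± 26.8 RP30M in WT (log2 fold changes -1.48 and -1.38, adjusted p = 0.00353 and 0.00636). miR447b and miR163, of which the second acts on methyltransferase genes, and miR168b-3p, named after its values were seen, gave weaker calls, at log2 fold changes of -1.06, -1.07 and -1.22 (adjusted p = 0.0394, 0.0337 and 0.0134). These 3 calls were lost with TMM factors (adjusted p = 0.0799, 0.0539 and 0.0525). For miR163 and miR168b-3p the groups overlapped, and without WT replicate 2 the calls were lost.

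Summed by family number, 44 of 119 listed families were tested, of which 10 were higher (22.7%) and 8 lower (18.2%), together 40.9%. The higher families were miR845, miR829, miR822, miR408, miR396, miR164, miR157, miR824, miR846 and miR166, of which miR846 passed here (adjusted p = 0.0299) but not as an entry (adjusted p = 0.108). Without rh27-2 replicate 1, 2 or 3 the families that passed numbered 8, 11 and 7, of which 3 were higher each time, and without WT replicate 2 they numbered 24, of which 16 were higher. The lower ones among the 18 were miR3932, miR167, miR399, miR394, miR171, miR5026, miR850 and miR827. For miR167 the sum was 605, 684 and 518 RP30M in rh27-2, against 5471, 6262 and 4585 RP30M in WT (log2 fold change -3.17, SE 0.297, limma, adjusted p = 1.09e-19). For miR171 it was 1505, 1439 and 1261 RP30M in rh27-2, against 3162, 5629 and 3557 RP30M in WT (log2 fold change -1.51, SE 0.309, adjusted p = 1.68e-05). Sums of miR159 were 46607 ± 401 RP30M in rh27-2 and 77156 ± 33785 RP30M in WT and missed the threshold (log2 fold change -0.64, adjusted p = 0.0605), while the abundant miR398, miR165, miR161, miR156 and miR162 had log2 fold changes of 0.07, 0.09, 0.11, 0.29 and -0.48 (adjusted p = 0.860, 0.844, 0.822, 0.434 and 0.194).

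The balance of the arms was tested in the 12 precursors with both arms above the filter, and 1 ratio passed (8.33%). It was miR168b, the miRNA of AGO1, whose log2 ratio of 5p to 3p was 7.57, 8.36 and 7.04 in rh27-2, against 7.25, 5.04 and 6.18 in WT. The groups overlapped, since WT replicate 1 was above rh27-2 replicate 3 (difference 1.501, SE 0.452, limma, adjusted p = 0.0207). The 5p arm did not pass, with 5002 ± 1080 RP30M in rh27-2 and 4182 ± 1334 RP30M in WT, and the 3p arm had 25.3 ± 13.0 RP30M in rh27-2 and 66.6 ± 51.6 RP30M in WT. No ratio passed under a pseudocount of 10, a filter of 100 RP30M or a replicate block, nor without rh27-2 replicate 1 or 2 or WT replicate 2 or 3, and without WT replicate 1 there were 4, 3 of them lower. For the other precursors the interval of the difference is wide, as each SE is 0.452.

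In the matched mRNA libraries 18972 genes were tested, of which 4007 were higher (21.1%) and 3762 lower (19.8%), together 40.9% (edgeR's quasi-likelihood test, adjusted p under 0.05). CPM values serve only to compare a gene between genotypes. Of 112 listed target genes 86 were tested, and 13 were higher and 23 lower. Over all genes, 2531 were higher and 1960 lower without rh27-2 replicate 2, and 2306 lower without rh27-2 replicate 3. Targets of families with a lower miRNA entry numbered 17 tested in 9 families, of which 6 were higher, 0 lower and 11 did not pass. A family was grouped by any entry that passed, not by its sum. Summed, miR159, miR163, miR168 and miR395 of these families did not pass (limma, adjusted p = 0.0605, 0.0829, 0.559 and 0.175), and miR168 stood at 0.23 on the log2 scale. At an unadjusted p under 0.05, 1 of these targets was lower, and DESeq2 called 0 of them lower. Targets of families with a higher entry numbered 26 tested in 6 families, of which 4 were higher, 5 lower and 17 did not pass. Targets of families with no entry that passed numbered 43 tested, of which 3 were higher and 18 lower.

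Several targets were higher where an entry of their miRNA family was lower. ARF6, an activator of auxin response in organ growth, had 424, 424 and 467 CPM in rh27-2, against 201, 215 and 284 CPM in WT, and ARF8 had 120, 116 and 122 CPM in rh27-2, against 77.0, 67.6 and 73.2 CPM in WT. Neither overlapped between genotypes (log2 fold changes 0.91 and 0.72, SE 0.162 and 0.0996, edgeR, adjusted p = 0.00565 and 0.00239). IAR3, the amidohydrolase gene that frees auxin from its conjugates, did not pass (0.66, adjusted p = 0.177), but did with a replicate block (adjusted p = 0.0452). NLA of miR827 had 30.10, 23.72 and 20.03 CPM in rh27-2, against 10.6, 11.3 and 12.4 CPM in WT (1.11, adjusted p = 0.00351). LCR of miR394 had 41.8, 45.2 and 45.9 CPM in rh27-2, against 27.5, 31.2 and 31.3 CPM in WT (0.56, adjusted p = 0.00690). APS3, an ATP sulfurylase gene of miR395, had 59.1, 71.3 and 60.2 CPM in rh27-2, against 37.4, 40.2 and 27.4 CPM in WT (0.86, adjusted p = 0.00767), and FAMT, a farnesoic acid methyltransferase gene of miR163, had 57.8, 128 and 175 CPM in rh27-2, against 23.8, 48.1 and 25.2 CPM in WT (1.90, adjusted p = 0.0150).

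Other targets of the families with lower entries did not pass. HAM1, HAM2 and HAM3 of miR171 had log2 fold changes of -0.19, -0.40 and 0.09 (edgeR, adjusted p = 0.442, 0.0755 and 0.697), and HAM2 passed as lower with a replicate block (adjusted p = 0.0231). PHO2 of miR399 had 143, 106 and 88.2 CPM in rh27-2 and 121, 78.2 and 122 CPM in WT, fully overlapping (0.07, adjusted p = 0.844). MYB33 and MYB65 of miR159 were at -0.23 and 0.05 (adjusted p = 0.227 and 0.883), and AGO1 of miR168 at -0.20 (adjusted p = 0.206). The remaining genes of miR395 were APS1, APS4 and the sulfate transporter gene SULTR2;1, at 0.64, 0.56 and 0.52 (adjusted p = 0.0649, 0.0944 and 0.319), and APS1 passed with a block (adjusted p = 0.0395).

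Targets of the families with higher entries moved in different directions. Of 7 tested GRF genes of miR396, 5 fell, beside 19.8% lower over all genes. Among them GRF1 had 6.95, 5.81 and 5.94 CPM in rh27-2, against 44.4, 33.7 and 49.1 CPM in WT, and GRF9 had 3.38, 3.35 and 3.39 CPM in rh27-2, against 19.0, 15.2 and 14.2 CPM in WT. Their log2 fold changes were -2.77 and -2.26, and those of GRF4, GRF8 and GRF3 were -2.03, -1.90 and -1.42 (edgeR, adjusted p = 0.000310, 0.000422, 0.00135, 0.00318 and 0.00230). GRF2 did not pass at -0.18 (adjusted p = 0.220), and GRF7 at -1.47 passed only with a block (adjusted p = 0.0712, and 0.0165 with it). For miR164, in contrast, 3 of 5 tested targets rose with it, beside 21.1% higher over all genes. CUC1 had 7.27, 9.11 and 7.70 CPM in rh27-2, against 1.56, 1.33 and 2.32 CPM in WT, and CUC2 had 7.14, 6.21 and 6.52 CPM in rh27-2, against 2.77, 1.73 and 3.57 CPM in WT. Their log2 fold changes were 2.21 and 1.30, and that of NAC080 was 1.37 (adjusted p = 0.00128, 0.00970 and 0.00748), with NAC1 and NAC100 at 0.88 and 0.12 (adjusted p = 0.0505 and 0.807).

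Among the HD-ZIP III genes of miR165 and miR166, CNA rose to 103, 96.1 and 101 CPM in rh27-2, against 69.1, 63.4 and 76.6 CPM in WT (log2 fold change 0.52, SE 0.109, edgeR, adjusted p = 0.00968). REV, PHB, PHV and HB8 did not pass, at -0.18, -0.46, 0.01 and 0.17, and PHB passed as lower with a block (adjusted p = 0.0177). The 6 tested SPL genes of miR156 and miR157 did not pass. They ranged from -0.66 for SPL9 to 0.21 for SPL2, with SPL11 at -0.56 (adjusted p = 0.0609, and 0.0306 with a block), SPL10 at -0.43, SPL6 at 0.06 and SPL13A at 0.07. The plantacyanin gene ARPN and the laccase gene LAC13 of miR408 were at 0.46 and -0.18 and AGL16 of miR824 at -0.31, none of which passed (adjusted p = 0.413, 0.397 and 0.0780). Among the targets of families with no entry that passed, all 5 tested TCP genes of miR319 fell, chosen after their values were seen and beside 19.8% lower over all genes, from -1.41 for TCP24 to -3.79 for TCP4 (adjusted p = 0.00129 and 0.000310).

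**Figure D3:**
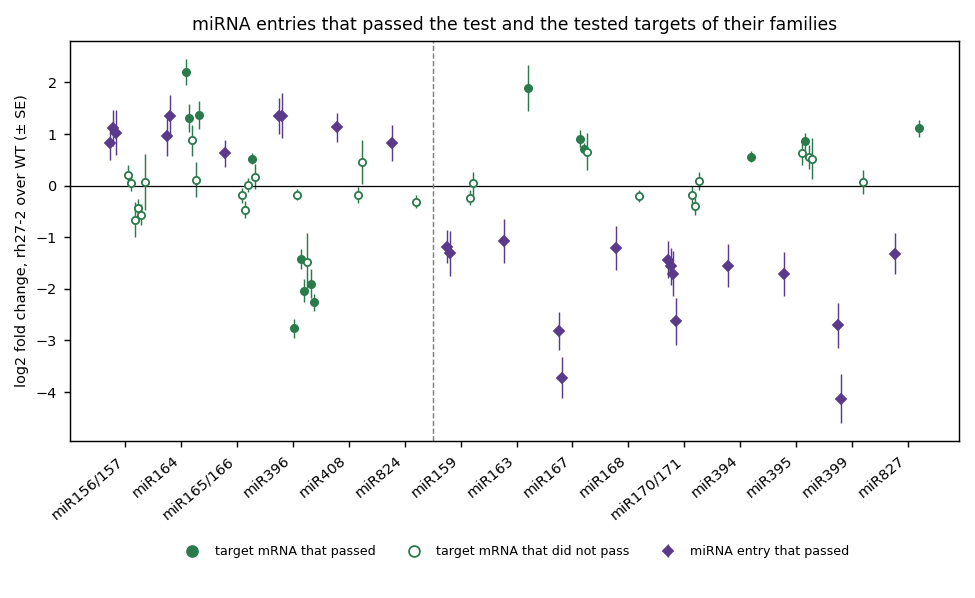
Log2 fold change of rh27-2 over WT (vertical axis, error bars SE) for the miRNA entries that passed (purple diamonds) and the tested target mRNAs of their families (green circles, filled where the target passed). Families left of the dashed line had higher entries and families right of it had lower ones. GRF targets of miR396 lie between -0.18 and -2.77, while CUC1 of miR164 lies at 2.21 and ARF6 of miR167 at 0.91.

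Of 27 tested genes that make, load or trim miRNAs, 0 were higher and 6 lower by edgeR. The lower share of 22.2% was near the 19.8% lower over all genes, of which 21.1% were higher. At an unadjusted p under 0.05, 1 was higher. With a replicate block 1 was higher and 9 lower, and with DESeq2 1 was higher and 7 lower. Without rh27-2 replicate 2 or 3 the lower genes numbered 2 and 3, and 1 was higher without rh27-2 replicate 1 or WT replicate 3. DCL1 had 59.8, 57.6 and 58.1 CPM in rh27-2, against 46.1, 47.3 and 57.8 CPM in WT, and did not pass (log2 fold change 0.22, adjusted p = 0.179). Its partners HYL1 and SE were at -0.32 and -0.15, the methyltransferase gene HEN1 at 0.11, the exporter gene HST at 0.00 and AGO1 at -0.20, none past the threshold (adjusted p = 0.140, 0.244, 0.650, 0.996 and 0.206). AGO10, whose protein holds miR165 and miR166 in the meristem, fell to 51.5, 43.8 and 48.3 CPM in rh27-2, against 111, 86.8 and 132 CPM in WT (-1.20, SE 0.167, adjusted p = 0.00249). The cap-binding genes CBP20 and ABH1 and the processing cofactors DDL, TGH and SIC were lower by 0.33 to 0.84 on the log2 scale at -0.46, -0.33, -0.69, -0.84 and -0.66 (adjusted p = 0.0149, 0.0277, 0.0179, 0.00966 and 0.0114). The RH27 transcript itself had 24.1, 24.8 and 22.3 CPM in rh27-2, against 32.8, 26.0 and 30.5 CPM in WT. Its libraries did not overlap, yet it did not pass (-0.33, SE 0.124, adjusted p = 0.0712), and whether the mutation lowers the transcript is not given in the labels.

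Precursor transcripts were mostly too low to test. Of 325 miRNA precursor loci in the mRNA tables, 95 had any count and 15 were tested. None of the precursors of miR845, miR829, miR158b, miR408 or miR399 had a count, and those of miR167a and miR167b had 6 and 24 counts over all 6 libraries. MIR863 was higher (log2 fold change 1.03, edgeR, adjusted p = 0.0206) and MIR414 lower (-2.43, adjusted p = 0.00203). No precursor was higher without rh27-2 replicate 2 or 3, 2 were lower without rh27-2 replicate 1, and 2 were higher and 2 lower without WT replicate 3. Among precursors whose miRNA passed, MIR824 and MIR157c were at 0.48 and 0.98 and MIR163 at -0.81, none past the threshold (adjusted p = 0.391, 0.102 and 0.0905). The strand of counting is not given, so overlapping and antisense reads cannot be told apart.

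Shoot apices and root tips did not share all of these changes. In a fit over the 12 small RNA libraries of both organs, 53 of 132 tested entries (40.2%) had a genotype effect that differed between organs, 40 higher in shoot apices (30.3%) and 13 lower (9.85%). Without WT root tip replicate 3, 33 passed, of which 21 were higher. The median of this difference was 0.70 on the log2 scale, and 75.5% of the 53 were positive. In root tips alone 73 of 125 tested entries were lower in rh27-2 and 16 higher. With libraries scaled to listed miRNA reads the median was 0.06, and of 44 entries that passed 47.7% were positive. Of the 35 shoot entries that passed, 29 were also tested in root tips alone. Of 15 that rose in shoot apices, 5 also rose in root tips and 6 fell there, and of 14 that fell in shoot apices, 7 also fell and 2 rose.

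miR845a and miR845b rose in both organs. In root tips miR845a had 105338, 163515 and 141664 RP30M in rh27-2, against 355, 385 and 434 RP30M in WT (log2 fold change 8.43, limma, adjusted p = 6.76e-104), and its difference of -2.29 between organs passed (adjusted p = 5.31e-05). miR167b and miR167a-3p, in contrast, fell in shoot apices and in root tips had values of 271, 381 and 564 RP30M and of 301, 295 and 367 RP30M in rh27-2, against 561.5, 433.2 and 838.4 RP30M and 341, 294 and 377 RP30M in WT. The differences of -3.13 and -2.75 passed (adjusted p = 4.63e-07 and 2.70e-06). miR827 turned its direction, with 220, 387 and 377 RP30M in rh27-2 root tips, against 40.6, 71.4 and 40.6 RP30M in WT root tips (difference -3.99, adjusted p = 2.91e-08). miR156f-3p turned the other way, with 103, 116 and 145 RP30M in rh27-2 root tips, against 987, 664 and 1034 RP30M in WT root tips (difference 3.98, adjusted p = 8.25e-10). miR396b-5p also fell in root tips, at 3079 RP30M on average in rh27-2 and 8137 RP30M in WT (difference 2.79, adjusted p = 2.44e-06).

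**Figure D4:**
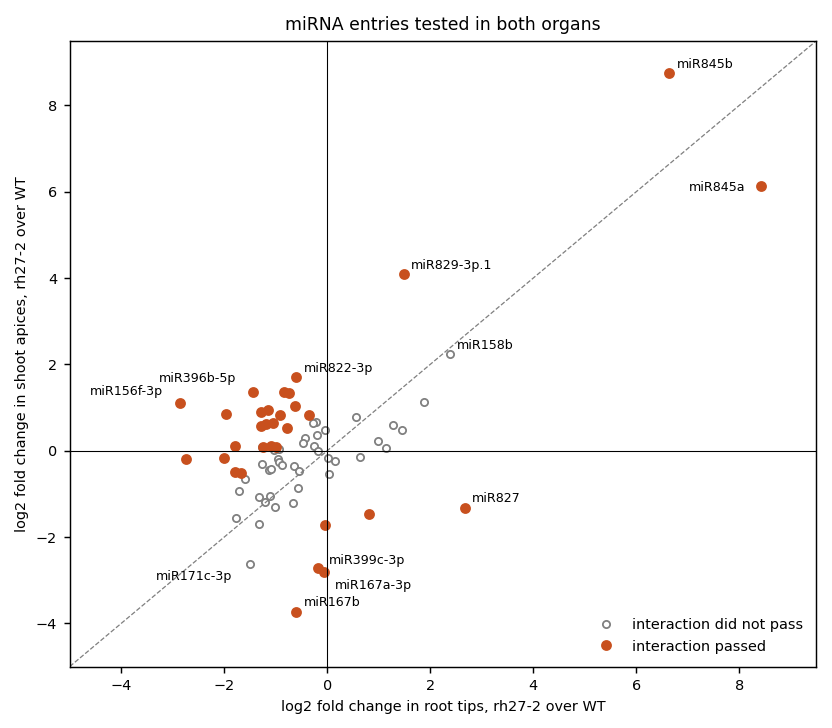
Log2 fold change of rh27-2 over WT in root tips (horizontal axis) and in shoot apices (vertical axis) for the 73 entries tested in both organs. Filled points are entries whose difference between organs passed, and the dashed line marks equal change. miR845a lies under the line at 8.43 in root tips and 6.14 in shoot apices, and miR167b at -0.60 in root tips and -3.73 in shoot apices.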

How the data were processed

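Small RNA and mRNA of shoot apices and root tips were sequenced as 3 libraries per genotype and organ. The authors gave each small RNA library as a signal scaled to 30000000 reads (RP30M in the headers), listing only miRNAs found in that library. Shoot mRNA was deposited as unnormalised counts for each locus. The submitters' processing notes name TopHat2, HTSeq, edgeR, Bowtie2 and the TAIR10 build; their roles, versions and settings, the strand of counting and the total behind RP30M are not given in the sources used here. Every RP30M value was a whole multiple of the value of 1 read within 0.001 read, which gave the depths; with few low values in a file, that this step is 1 read was inferred.

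Entries were tested with limma 3.58.1 in R 4.3.3 (trend, robust) on log2 of RP30M plus 1, which understates the change of low entries, after a filter of 30 RP30M in 3 libraries, with Benjamini-Hochberg adjustment over all entries at 0.05. Families are sums by the number in the name. The organ difference was the interaction term over 12 libraries. Arm ratios used the same test without trend. mRNA counts were tested with edgeR 4.0.16 (filterByExpr with a minimum count of 10, TMM, robust quasi-likelihood). The scripts were tested on simulated data. No 2 libraries of a group were copies of each other. Gene names came from a RefSeq table.

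In shoot mRNA the deviations of same-numbered libraries correlated at 0.461, 0.450 and 0.164, though nothing in the labels states what a number marks. The mRNA calls given come from the fit without a replicate block, and the blocked value stands beside those it changes. In the small RNA libraries they did not pair.

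Named entries were, among those that passed with a mean of at least 60 RP30M, up to 15 rises and 15 falls by size, the 10 most abundant entries, and arms of a ratio that passed; named mRNAs were listed targets of families with an entry that passed, core biogenesis genes and precursor or biogenesis genes that passed. The TCP genes, the low entries and the organ examples beyond the 10 strongest were chosen after their values were seen. Members and lists were chosen with earlier results of these data known. Alternatives changed the pseudocount, filter, scaling, variance prior, replicate block, tool and libraries used. Root tip mRNA was not used here.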

Additional observations from a re-analysis of the deposited data

Results flagged for a closer look

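The results here are entries whose genotype effect differed between organs by the interaction term of limma over the 12 small RNA libraries. Each value is the log2 fold change of rh27-2 over WT in shoot apices minus that in root tips, without the shift of 0.70 in the median over entries taken out. Beyond those given in the report (miR845a at -2.29, miR167b at -3.13, miR167a-3p at -2.75, miR827 at -3.99, miR156f-3p at 3.98 and miR396b-5p at 2.79), the 7 others among the 10 with the lowest adjusted p were miR3932b-5p at -7.48, miR399a at -6.14, miR8184 at -5.63, miR397b at -4.98, miR780.1 at 5.09, miR172d-5p at 3.80 and miR846-3p at 2.83. miR8184 had 49.9, 79.8 and 82.2 RP30M in rh27-2 root tips, against 0, 0 and 1.85 RP30M in WT root tips, and miR780.1 had 3.33, 1.99 and 5.74 RP30M in rh27-2 root tips, against 77.70, 105.5 and 158.8 RP30M in WT root tips. The differences of miR8184 and miR172d-5p are their root tip changes of 5.63 and -3.80 with the sign turned. No shoot change entered them. The miR780 family was listed in only 1 shoot library, at 1.58 RP30M, so that difference too rests on root tips. miR3932b-5p had 25.0, 31.9 and 26.8 RP30M in rh27-2 root tips, against 0, 3.24 and 0 RP30M in WT root tips, the opposite direction to its fall in shoot apices. miR399a likewise had 26.6, 27.9 and 21.0 RP30M in rh27-2 root tips, against 5.30, 8.11 and 3.69 RP30M in WT root tips.

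Among the other entries that passed in shoot apices, the difference was positive for miR829-3p.1 at 2.60, miR822-3p at 2.30, miR396b-3p at 2.21, miR845b at 2.10, miR164b-5p at 2.10, miR164c-5p at 2.08, miR166g at 1.81, miR157b-3p at 1.75, miR822-5p at 1.66 and miR824-3p at 1.18. It was negative for miR399c-3p at -2.53, miR5026 at -2.29, miR850 at -1.87 and miR395e at -1.67. In root tips miR850 was listed at 3.33, 0 and 3.82 RP30M in rh27-2 and 0, 1.62 and 1.85 RP30M in WT.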

How the results depend on the processing

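A pseudocount of 10 called the same 35 entries. With a filter of 100 RP30M 9 entries and 5 families were lower, and 8 organ differences were negative. Scaled to listed miRNA reads, 10 entries were higher, 17 families lower and 21 organ differences positive against 23 negative, and miR398c-3p, miR165b and miR161.1 turned to -0.21, -0.19 and -0.17 on the log2 scale, as did their families (-0.21, -0.19 and -0.17). With TMM factors 26 entries were higher and miR159a stood at 0.0082. With the own variance of each entry, chosen after seeing the data, 7 entries were higher and 10 lower, and 6 families were higher. The replicate block left 28 entries called, 28 of them shared, 17 families and 52 organ differences. Replicate numbers did not pair these libraries (correlations -0.26, -0.26 and -0.08). Arm ratios called higher numbered 0 with a pseudocount of 10, a filter of 100 RP30M or the block. The share of miRNA reads gave a sign-flip p of 0.25 with the numbers as pairs.

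In mRNA, DESeq2 and RLE size factors each called 1 biogenesis gene higher and put HST at 0.011 each, DESeq2 called 2 precursors higher, total-count scaling called 10 biogenesis genes lower, the unfiltered fit called 4 precursors lower with PHV at -0.00159, and the replicate block called 1 biogenesis gene higher, 16 targets higher and 29 lower, and 4606 genes higher and 4312 lower. Total-count scaling, which moved the median over genes to -0.11, turned SPL6, SPL13A, MYB65, PHV and PHO2 to -0.028, -0.014, -0.041, -0.073 and -0.027.

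Leaving out 1 library gave 7 to 23 higher and 12 to 16 lower entries, 3 to 16 higher and 4 to 10 lower families, 21 to 48 positive organ differences, 0 to 1 higher and 0 to 3 lower arm ratios, 2531 to 3789 higher and 1960 to 3908 lower genes, 0 to 2 higher and 1 to 2 lower precursors, and 0 to 1 higher and 2 to 7 lower biogenesis genes. Of the 35 entries, the 6 that reached the filter in 1 genotype only were not tested without a library of that genotype. Of the 35, 16 were lost in at least 1 fit in which they were tested. They were miR156f-3p, miR157b-3p, miR157c-3p, miR159c, miR163, miR164b-5p, miR164c-5p, miR166g, miR168b-3p, miR396b-3p, miR447b, miR5026, miR822-5p, miR824-3p, miR827 and miR850. Values that did not pass and changed sign ranged from -0.053 to 0.24 for miR398c-3p, -0.13 to 0.38 for miR165b, -0.085 to 0.42 for miR161.1 and -0.56 to 0.049 for miR159a, and for families from -0.052 to 0.25 for miR398, -0.14 to 0.38 for miR165 and -0.085 to 0.42 for miR161. In mRNA they ranged from -0.33 to 0.74 for SPL13A, -0.10 to 0.20 for MYB65, -0.10 to 0.10 for PHV, -0.031 to 0.35 for HB8, -0.15 to 0.21 for PHO2, -0.084 to 0.26 for NAC100, -0.022 to 0.27 for HAM3, -0.083 to 0.12 for SPL6, -0.045 to 0.043 for HST and -0.073 to 0.28 for HEN1. The cause of these shifts was not tested. Count tests on miRNA reads and families by shared seed were not run, since too few low values allow the check of whole reads and the files hold no sequences. Depth limits entries near 10 RP30M, where the shallowest library holds about 3 reads.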

Other observations

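When all 207 entries were tested without a filter, 36 passed. Of these, 27 were among the 35 that passed with the filter, so some of the 35 were lost. The remaining 9 lay below the filter of 30 RP30M, of which 6 are described here, chosen after their values were seen. The others were miR5023 and miR859 at 2.65 and 2.58 and miR840-3p at -1.75 on the log2 scale (adjusted p = 0.0184, 0.0216 and 0.0470). miR172b-3p, of the family that represses AP2-like genes as plants leave the juvenile phase, had 1.11, 0 and 0.788 RP30M in rh27-2, against 28.9, 26.1 and 26.7 RP30M in WT, just under the filter. Every WT library was far above every rh27-2 library, and pooled reads were 30.6-fold lower in rh27-2 (3 reads against 90, exact 95% interval 10.1 to 151, counting error only; limma without a filter, log2 fold change -4.18, adjusted p = 4.65e-06). By mean RP30M miR172b-3p was 42.9-fold lower. Of its 6 tested target genes in shoot mRNA, SMZ and TOE2 were higher and TOE1 and TOE3 lower. SMZ had 28.4, 49.1 and 41.7 CPM in rh27-2, against 15.6, 15.3 and 15.3 CPM in WT (log2 fold change 1.37, edgeR, adjusted p = 0.00289), and TOE2 was at 1.04 (adjusted p = 0.00461). TOE1 and TOE3 were at -0.71 and -1.31 (adjusted p = 0.00649 and 0.0494), and AP2 at -0.02 did not pass.

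Of the miR399 entries below the filter, miR399f and miR399d fell, while miR399c-5p had 11.7, 16.7 and 13.4 RP30M in rh27-2 and 3.21, 19.2 and 16.8 RP30M in WT, overlapping. miR399f had 2.22, 8.34 and 4.73 RP30M in rh27-2, against 38.5, 45.3 and 21.6 RP30M in WT, and miR399d was at -2.79 on the log2 scale (limma without a filter, adjusted p = 0.000587 for miR399f and 0.00443 for miR399d). miR390b-3p, from the precursor of a trans-acting siRNA trigger, had 3 reads over all rh27-2 libraries against 32 over all WT libraries (-3.15, adjusted p = 0.00261). Higher in rh27-2 were the young miR843, at 69 reads against 10, with a log2 fold change of 2.79 (adjusted p = 0.00285), and miR829-5p, the partner arm of miR829-3p.1, at 2.58 (adjusted p = 0.0216).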
